A study of Mus musculus with 6 samples.

Results

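The interferon response was followed here as a set of 35 genes, named by their symbols, and the 101 accessible regions in and around them, of 66679 regions in the whole series. The set held the 4 receptor genes Ifnar1, Ifnar2, Ifngr1 and Ifngr2, 8 transcription factor genes and 23 genes of induced effectors. A region was assigned to a gene when it overlapped the gene body or the 10 kb on either side in the GENCODE M21 annotation of GRCm38. It was called a promoter region within 1 kb of an annotated transcription start of the gene (39 regions) and a distal region otherwise (62 regions). Of the distal regions, 44 lay at no annotated start and 18 lay at the start of another gene, noncoding genes included.

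Accessibility was profiled by ATAC-seq, in which the Tn5 transposase inserts adapters into open chromatin, in primary smooth muscle cells of the oviduct on day 2 of pregnancy. There were 3 libraries labelled WT and 3 labelled Pbrm1 cKO, each made from 50000 cells of females aged 8 to 12 weeks. The conditional deletion combined Pbrm1 fl/fl with a PR-IRES-Cre driver, so recombination is limited to cells that express the progesterone receptor or did so earlier, and the study describes controls as Pbrm1 fl/fl where the labels say WT. Cells of both groups were plated for some hours before the libraries were made, and the sources describe no addition of interferon.

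Interferons bind paired receptor chains at the cell surface and act through JAK kinases. Type I interferon brings STAT2 and IRF9 together in a complex that binds the interferon-stimulated response element (ISRE), while type II interferon acts at gamma-activated sites (GAS). The induced genes encode antiviral and regulatory proteins, and several tissues keep some of them at a low tonic level. PBRM1 belongs to PBAF, a SWI/SNF form that remodels nucleosomes with the energy of ATP.

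The ISRE was read as GAAA, any 2 bases, GAAA on either strand. It was present in 12 of the 31 members found in the RefSeq table of promoter windows, which span 300 bases around a start. Among all 27025 genes of that table, 3.99% held it. The members were Bst2, Gbp2, Gbp3, Ifih1, Ifit1, Ifit3, Irf2, Isg15, Oas1a, Oas3, Rsad2 and Stat2. The GAS was read as TTC, any 3 bases, GAA, and was held by 10 of the 31 members and by 9.55% of all genes. Mx1, Mx2, Oas2 and Usp18 had no entry in the table. A match is a stretch of letters and not a measured binding site.

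The windows below show ISREs upstream of the start, from the member with the most accessible promoter to the least, to place the motif that the pathway reads beside the measured regions. Each is RefSeq sequence of GRCm38.p6, 5′ to 3′ on the gene's strand, with the motif in capitals. Where the motif lies on the opposite strand it reads TTTC, any 2 bases, TTTC. The first 7 are all members with such a window and a promoter region. Ifit1, Isg15, Oas3 and Rsad2 also held ISREs upstream of a start that lay in no region, and of these Ifit1 alone is shown, chosen after its values were seen for its place in the results.
Stat2, chr10:128270256-128270305, + strand: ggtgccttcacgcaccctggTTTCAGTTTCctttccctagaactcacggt
Gbp3, chr3:142559979-142560034, + strand: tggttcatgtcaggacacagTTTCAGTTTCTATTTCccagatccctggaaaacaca
Bst2, chr8:71537567-71537622, - strand: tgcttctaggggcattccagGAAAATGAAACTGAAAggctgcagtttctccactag
Irf2, chr8:46739495-46739533, + strand: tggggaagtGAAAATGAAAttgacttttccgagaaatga
Oas1a, chr5:120907526-120907565, - strand: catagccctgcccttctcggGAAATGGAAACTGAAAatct
Gbp2, chr3:142620584-142620621, + strand: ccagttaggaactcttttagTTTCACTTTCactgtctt
Ifit3, chr19:34583353-34583436, + strand: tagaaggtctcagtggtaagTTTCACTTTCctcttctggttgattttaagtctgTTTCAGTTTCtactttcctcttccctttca
Ifit1, chr19:34640765-34640833, + strand: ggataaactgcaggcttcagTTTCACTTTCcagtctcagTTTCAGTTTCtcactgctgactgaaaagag

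The windows of Stat2, Bst2, Irf2, Oas1a, Gbp2 and Ifit3 lay inside a measured promoter region. That of Gbp3 lay between 2 regions and that of Ifit1 outside any. In Gbp3, Bst2 and Oas1a a pair of matches overlapped, whereas Ifit3 and Ifit1 carried separate matches.

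The deposited peak lists of single libraries held no read counts, so each region was placed by its rank within a library, from the most accessible (rank 1) to the least (66679), by its best −log10 p. Ties share a mean rank and can end in 0.5. The rank score is log2 of the number of regions divided by the rank, and a difference of 1 means a rank number divided by 2 in Pbrm1 cKO. The lists held 201228 to 241237 distinct intervals per library, and 95.4% to 99.4% of the 66679 regions had an entry. WT library 3 had the lowest median fold enrichment over background, 3.61, against 4.43 to 4.87 in the other 5 libraries. Total reads are unknown here, and the labels do not say whether libraries came from separate animals, so p-values measure the spread between these libraries.

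Of the smooth muscle markers, 5 of 5 (Acta2, Myh11, Cnn1, Tagln and Des) had a promoter region, with median ranks of 20413.5 to 27941.5 in WT and 21986 to 26673.5 in Pbrm1 cKO libraries. Promoter regions were also present at 4 of 5 fibroblast markers, 3 of 4 endothelial markers, 2 of 6 immune markers and 1 of 6 epithelial markers. Ptprc, Adgre1, Itgam and Cd3e of the immune list and Epcam, Cdh1, Krt8, Krt18 and Ovgp1 of the epithelial list had none. In the longer lists of single libraries, Epcam, Cdh1, Krt8 and Krt18 had an interval within 1 kb of a start in all 6 libraries. Ovgp1 had one in 5, Adgre1 in 4, Itgam in 3, Ptprc in 1 and Cd3e in 0. The epithelial marker with a region was Foxj1, a factor of ciliated cells. Its mean rank of 4389 was better than that of every smooth muscle marker, of which Acta2 was best at 19388. No marker had genotypes that did not overlap, and the smallest limma adjusted p (Benjamini-Hochberg) was 0.409. ATAC-seq of mixed cells cannot tell a change within cells from a change in cell types.

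At least 1 region was found at 33 of the 35 members, with a median of 3 regions and a maximum of 8 at Irf2. A promoter region was present at 27 members (77.1%), and at 62.8% of the 21938 protein-coding genes. Of these 27, 9 ranked better than the median of all protein-coding genes with a region, a mean rank of 8108, while 4 were in the best quartile and 6 in the worst. Every receptor and every transcription factor gene had a promoter region, against 15 of 23 effector genes. The median mean rank was 6795 for receptors, 8545 for transcription factors and 15543 for effectors.

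The genotype comparison asked whether accessibility at these genes differed without PBRM1. No promoter region and no distal region passed limma at an adjusted p of 0.05 (Benjamini-Hochberg over all 66679 regions). Over all regions 45 passed, or 0.0675%, with 26 ranked better and 19 worse in Pbrm1 cKO. The smallest limma adjusted p was 0.201 among the members' promoter regions and 0.0983 among their distal regions. At an unadjusted p under 0.05 there were 12 member regions, 8 ranked better and 4 worse, of 101, whereas 15.9% of all regions were under that value. Over the 101 regions together, the members' share was not above the background. The classes differed, which was not tested. Of the 39 promoter regions, 0 ranked better and 2 worse, beside 959 and 1707 of all 21555 regions at a start. Of the 44 distal regions at no start, 8 ranked better and 2 worse, beside 4046 and 3874 of all 45124 such regions. Of the 8, those of Oas3, Irf2 and Oasl2 and both of Trim25 were in the Pbrm1 cKO list alone. The 2 ranked worse, of Isg20 and Ifit2, were in the WT list alone. All of these entered the set only through the genotype that ranked them better, so the split is not independent of list membership. Among the 44, 14 were in the Pbrm1 cKO list alone and 5 in the WT list alone.

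**Figure D1:**
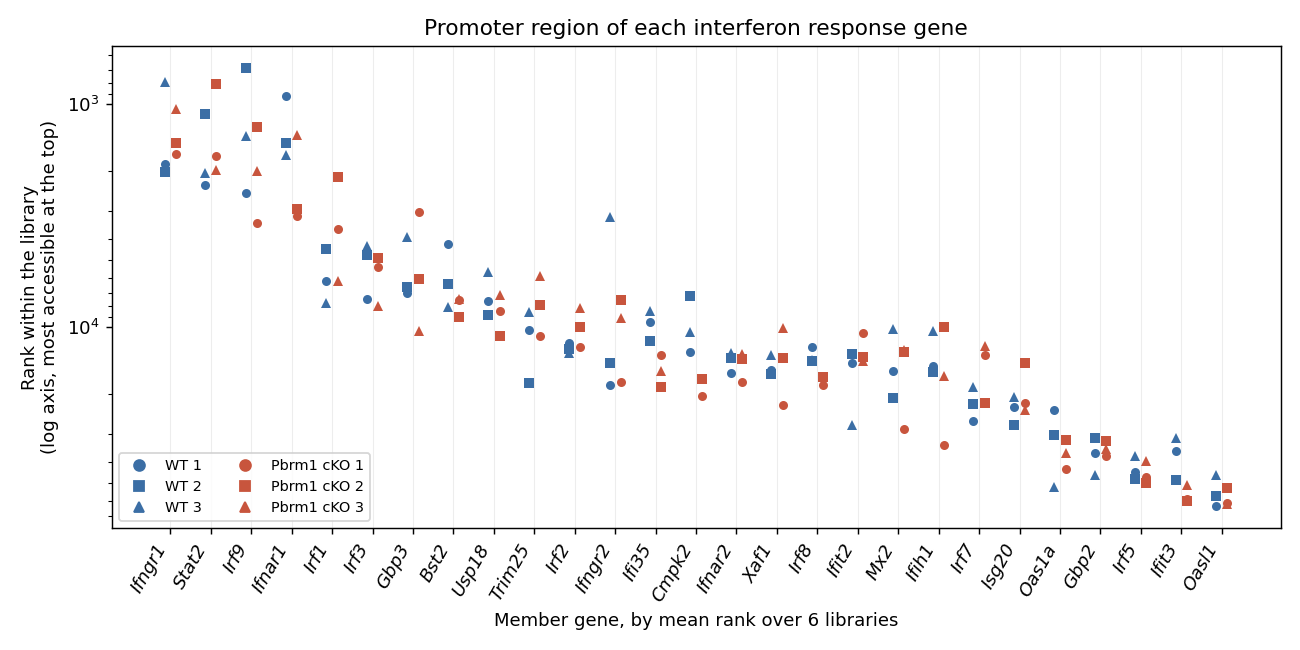
Rank of the promoter region of each of 27 members in each library (log axis, most accessible at the top), with WT in blue, Pbrm1 cKO in red and a symbol for each replicate number. Ifngr1, Stat2, Irf9 and Ifnar1 rank best and Oasl1 last, and the 2 genotypes overlap at all but Ifi35, Cmpk2, Irf8 and Ifit3.

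Among the receptors, Ifngr1, the ligand-binding chain for interferon gamma, had the most accessible promoter of the set (chr10:19591394-19592489). Its ranks were 1849, 2010 and 791 in WT libraries 1 to 3 and 1676, 1486 and 1050 in Pbrm1 cKO libraries 1 to 3. The groups overlapped, and the difference in rank score was 0.06 ± 0.58 (SE, n = 3 per group). Ifnar1, a chain of the type I receptor, had ranks of 913, 1487 and 1691 in WT and 3155, 2955.5 and 1374 in Pbrm1 cKO. Pbrm1 cKO libraries 1 and 2 lay behind all WT libraries and library 3 did not, and the difference of -0.83 ± 0.55 did not pass (limma adjusted p = 0.488).

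Ifngr2 and Ifnar2, the partner chains, had less accessible promoters, with mean ranks of 11660 and 14565. Ifngr2 varied most in WT, with ranks of 18217.5, 14411 and 3208, against 17518, 7554.5 and 9051 in Pbrm1 cKO. The libraries overlapped, and the difference was -0.17 ± 0.53. For Ifnar2, with ranks of 13017.5 to 15958 in WT and 13226.5 to 17561.5 in Pbrm1 cKO, it was -0.06 ± 0.33. Neighbours in the order of Ifngr1, Ifnar1, Ifngr2 and Ifnar2 overlapped across libraries, except that every rank of Ifnar1 was better than every rank of Ifngr2.

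Stat2 and Irf9 encode partners in the complex that binds the ISRE, and both had promoters among the most accessible of the set. Stat2 (chr10:128270179-128270966) had ranks of 2308, 1110 and 2040 in WT and 1713, 812 and 1979.5 in Pbrm1 cKO. Irf9 (chr14:55603750-55604628) had ranks of 2493, 686 and 1384 in WT and 3396, 1261 and 1993 in Pbrm1 cKO. In both genes library 2 had the best rank of each genotype, and the groups overlapped. The differences were 0.31 ± 0.57 for Stat2 and -0.62 ± 0.60 for Irf9, each within the spread of the libraries. The Irf9 value was -0.14 without WT library 2 and -1.07 without WT library 1.

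Irf1 is an early activator in interferon gamma signaling. Its promoter region had ranks of 6181, 4450 and 7772 in WT and 3616, 2110 and 6197 in Pbrm1 cKO. Pbrm1 cKO library 3 lay inside the WT range, and the difference of 0.73 ± 0.45 did not pass (limma adjusted p = 0.456) and was 0.34 without Pbrm1 cKO library 2. Irf7, a regulator that amplifies type I interferon production, had ranks of 26288.5, 22037 and 18449 in WT and 13306.5, 21789.5 and 12080 in Pbrm1 cKO. The genotypes overlapped there as well, with a difference of 0.54 ± 0.34 (limma adjusted p = 0.468).

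Irf8, which acts mainly in myeloid and B cells, was the only transcription factor gene with non-overlapping genotypes at its most accessible promoter region. Its other promoter regions overlapped between the genotypes. The most accessible one (chr8:120736132-120736456) had ranks of 12197, 14189 and 14015.5 in WT and 18105, 16714.5 and 16782 in Pbrm1 cKO. All 3 Pbrm1 cKO ranks lay behind all 3 WT ranks, with a difference of -0.36 ± 0.32 (limma adjusted p = 0.632). The immune markers Ptprc, Adgre1, Itgam and Cd3e had no region. Csf1r and Cd68 had one each, with differences of -0.24 and -0.19 and overlapping genotypes. The part of immune cells in the Irf8 values was not tested.

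Irf2, a factor that binds the same element as Irf1, had a difference of 0.31 ± 0.34, Irf3, the factor activated by cytosolic nucleic acid sensing, one of -0.15 ± 0.40, and Irf5, best known in myeloid cells, one of -0.07 ± 0.22. Irf3 shares its region with the start of Bcl2l12. The 3 genes spanned much of the range of levels, with mean ranks of 5797 for Irf3, 11294 for Irf2 and 44516 for Irf5, and their genotypes overlapped.

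**Figure D2:**
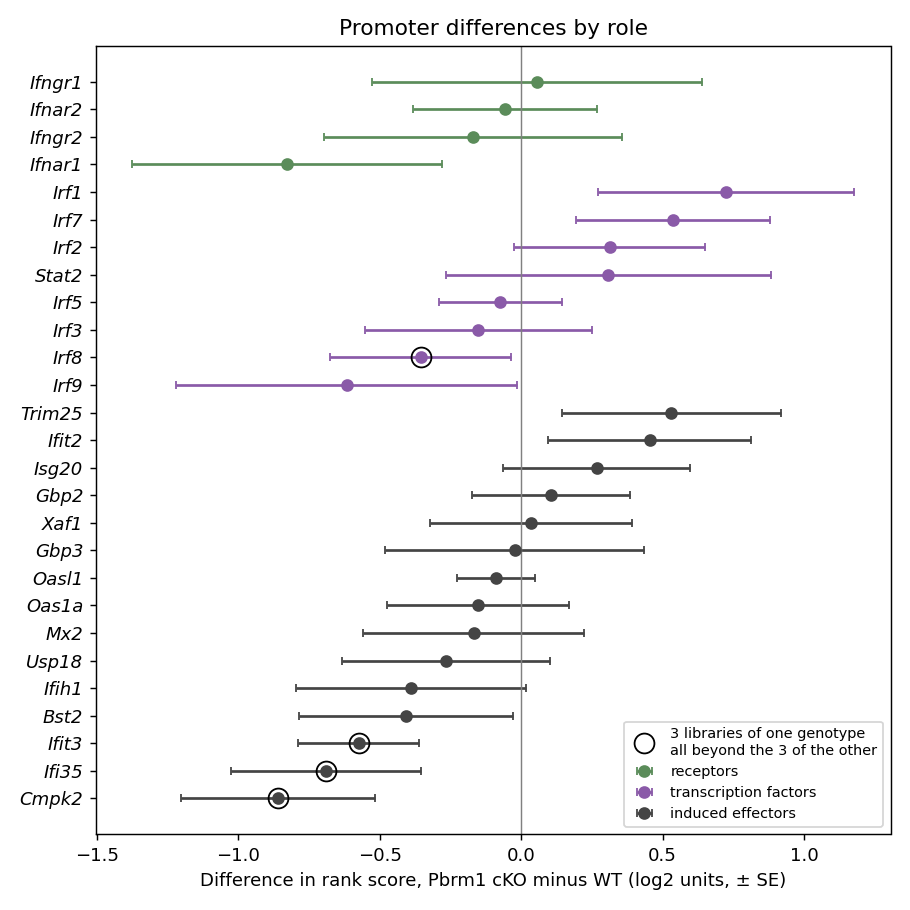
Difference in rank score, Pbrm1 cKO minus WT (points, log2 units, bars ± SE, n = 3 libraries per group), at the promoter region of 27 members colored by role. Circles mark Irf8, Ifit3, Ifi35 and Cmpk2, whose 3 libraries of each genotype did not overlap, and no point passed the limma threshold.

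Of the 15 effector genes with a promoter region, 3 had genotypes that did not overlap at their most accessible one, all with worse ranks in Pbrm1 cKO. Such regions made up 10.3% of all 21555 regions at a start. Cmpk2, a mitochondrial nucleotide kinase gene beside Rsad2, had ranks of 12963.5, 7268.5 and 10526 in WT and 20286.5, 17091.5 and 17091 in Pbrm1 cKO (chr12:26469015-26470092). Its difference of -0.86 ± 0.34 did not pass (limma adjusted p = 0.232). Ifi35, a regulator of innate signaling (chr11:101448052-101448542), had ranks of 9430.5, 11481.5 and 8489 in WT and 13372.5, 18497 and 15620.5 in Pbrm1 cKO, with a difference of -0.69 ± 0.34 (limma adjusted p = 0.324). The best Pbrm1 cKO library of each gene lay behind the worst WT library.

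Ifit3 encodes an antiviral protein that partners IFIT1. Its promoter region (chr19:34583185-34583683), which holds both ISREs shown above, had ranks of 35761.5, 48308.5 and 31475 in WT and 58662.5, 59907.5 and 51088 in Pbrm1 cKO. All Pbrm1 cKO ranks lay behind all WT ranks, with a difference of -0.57 ± 0.21, the smallest adjusted p of the promoters (limma, 0.201). The sequence of this region has 1 near-identical copy in the genome (at least 95% identity over 80% of its length), so reads of the copies may have been divided between them.

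Xaf1 had a second promoter region, in an intron and in the WT list alone, whose genotypes did not overlap either (-0.22 ± 0.11, limma adjusted p = 0.349). With it, 5 of the 39 promoter regions had worse ranks in all 3 Pbrm1 cKO libraries than in any WT library, beside the 10.3% of all regions at a start. The converse was found at 0 of the 39, against 6.63% of all regions at a start. The median difference was -0.07 over the members' promoter regions, with 14 above and 25 below 0. For all 21555 regions at a start it was -0.04, with 9917 above and 11638 below 0. In the list membership, 33 of the 39 (84.6%) were in the lists of both genotypes, 3 (7.69%) in that of WT alone and 3 (7.69%) in that of Pbrm1 cKO alone. The shares among all regions at a start were 81.3%, 9.61% and 9.06%.

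At the other 12 effector genes the most accessible promoter region overlapped between the genotypes. Gbp3, a guanylate-binding GTPase gene, Bst2, the gene for the virus-tethering protein tetherin, and Usp18, the gene for the protease that removes ISG15, were the most accessible, with mean ranks of 6173, 7114 and 8102. Their differences were -0.02 ± 0.46, -0.41 ± 0.38 and -0.27 ± 0.37. Trim25, a ubiquitin ligase gene of RNA sensing, Ifit2 and Isg20, an exonuclease gene, had positive differences of 0.53 ± 0.39, 0.45 ± 0.36 and 0.27 ± 0.33. Each rested in part on 1 library, with values of 0.22 for Trim25 without WT library 2, 0.13 for Ifit2 without WT library 3 and 0.05 for Isg20 without Pbrm1 cKO library 2. None of these 6 passed.

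Ifih1, which encodes the RNA sensor MDA5, had ranks of 14968, 15932.5 and 10412.5 in WT and 33799, 9996.5 and 16510 in Pbrm1 cKO. Library 1 of Pbrm1 cKO stood far behind the other 5, and the difference of -0.39 ± 0.41 became 0.08 without it. Mx2 (-0.17 ± 0.39), annotated as a polymorphic pseudogene, and Xaf1 (0.03 ± 0.36), a proapoptotic gene, had their worst rank in the same library. Among the least accessible promoters were those of the oligoadenylate synthetase gene Oas1a, its relative Oasl1 and Gbp2, a guanylate-binding GTPase gene like Gbp3, with mean ranks of 36247, 57168 and 36603 and differences of -0.15 ± 0.32, -0.09 ± 0.14 and 0.11 ± 0.28.

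Promoters with and without an ISRE had close medians in level and in difference, given here without a test. Of the 12 members with a match, 8 had a promoter region, with a median mean rank of 14115 and a median difference of -0.09. Of the 19 without a match, 17 had a region, with medians of 14205 and -0.07. Differences ran from -0.57 to 0.31 with a match and from -0.86 to 0.73 without.

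Ifit1, Isg15, Mx1, Oas2, Oas3, Oasl2, Rsad2 and Ifi44 had no promoter region, although several are classic interferon-induced genes. In the longer lists of single libraries, 6 of these 8 had an interval within 1 kb of a start in all 6 libraries, Ifi44 in 4 and Oas2 in 3. The best −log10 p at a start ranged from 7.71 to 16.7 over the libraries for Isg15 and from 3.34 to 5.42 for Oas3. A start without an interval is not shown to be closed.

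For the ubiquitin-like modifier gene Isg15, the best interval ranked 48832.5, 83816.5 and 42847 among all intervals of WT libraries 1 to 3 and 84040.5, 42795 and 47448 in Pbrm1 cKO. For the antiviral gene Rsad2 (viperin), it ranked 40879.5, 73521.5 and 60041.5 in WT and 52027, 63920.5 and 63078 in Pbrm1 cKO. Both genes overlapped between the genotypes. At Ifit1, the ranks were 66527, 43357.5 and 44997 in WT and 76341.5, 79501.5 and 98810 in Pbrm1 cKO, and the groups did not overlap. Mx1, Oasl2 and Oas3 overlapped. The −log10 p at Ifit1 did overlap, at 10.2, 15.5 and 8.75 in WT and 10.0, 8.53 and 6.49 in Pbrm1 cKO. These ranks come from lists of unlike length and are a description without a test.

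**Figure D3:**
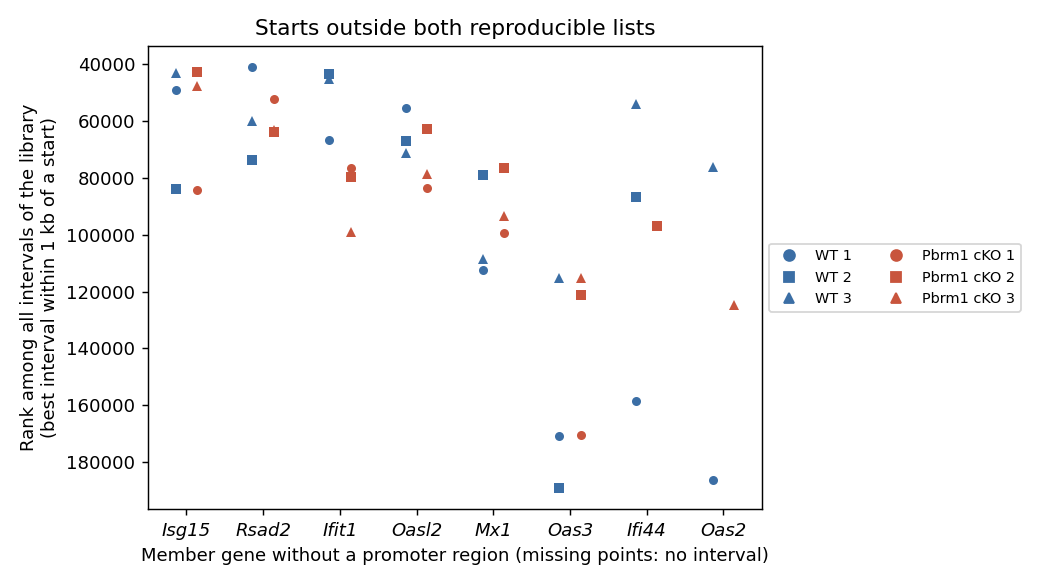
Rank of the best interval within 1 kb of a start among all distinct intervals of each library, for the 8 members without a promoter region (symbols as in the plot of promoter ranks). Isg15 and Rsad2 rank best, Ifit1 has its 3 Pbrm1 cKO points behind its 3 WT points, and Oas2 lacks a point in 3 libraries.

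Of the 62 distal regions, 11 had better ranks in all 3 Pbrm1 cKO libraries than in any WT library, and all 11 were among the 44 at no start. Over all 45124 regions at no start the share was 12.5%. The converse was found at 2 of the 44, against 11.1%, and at 1 of the 18 regions at another gene's start. The median difference was 0.22 over the 44 regions at no start, -0.10 over the 18 at another gene's start and 0.02 over all regions at no start. None of these regions passed the limma test, so the direction is a count of ranks only. Regions in the list of 1 genotype alone entered the set only through that genotype.

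The largest positive difference was at a region 3804 bases before the start of Ifit1 (chr19:34636842-34637292). Its ranks were 54986, 37783 and 30801.5 in WT and 25250.5, 20595 and 12548.5 in Pbrm1 cKO. Every Pbrm1 cKO library ranked it better than every WT library, with a difference of 1.10 ± 0.35 (limma adjusted p = 0.150). At the start of the same gene the order of the genotypes by rank among all intervals was the opposite, while the −log10 p overlapped, as given above.

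An intronic region of Ifngr2 (chr16:91556721-91557208) had ranks of 47101.5, 50719 and 33392 in WT and 24351, 25458 and 19054.5 in Pbrm1 cKO. An intronic region of Ifih1 (chr2:62643448-62643704) had ranks of 51847.5, 55318.5 and 45841 in WT and 22697, 31674 and 33773 in Pbrm1 cKO. The Pbrm1 cKO ranks were better in all 3 libraries at both. The promoters of these genes overlapped between the genotypes, and the sign of their differences changed with 1 library left out, to 0.61 at Ifngr2 without WT library 3 and to 0.08 at Ifih1 without Pbrm1 cKO library 1. The differences were 0.92 ± 0.31 at Ifngr2 (limma adjusted p = 0.164) and 0.81 ± 0.27 at Ifih1 (limma adjusted p = 0.159).

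Trim25 had a region 9717 bases before its start (chr11:88989540-88989777) that was in the Pbrm1 cKO list alone. Its ranks were 63780.5, 63990 and 57692.5 in WT and 49446, 26584 and 44313 in Pbrm1 cKO, a difference of 0.67 ± 0.21 (limma adjusted p = 0.149). All WT ranks were near the end of the list. A second Trim25 region, 5581 bases before the start, overlapped between the genotypes because WT library 1 ranked it 31785.5 (0.72 ± 0.34, limma adjusted p = 0.308). It too was in the Pbrm1 cKO list alone, so both Trim25 regions entered the set only through that genotype.

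The remaining regions with better ranks in all Pbrm1 cKO libraries lay in Oas3 (intron, 0.43 ± 0.15), Irf2 (exon, 0.33 ± 0.15) and Oasl2 (exon, 0.25 ± 0.12), before Irf1 (0.25 ± 0.29) and beyond the ends of Ifnar1 (0.56 ± 0.31), Ifngr2 (0.23 ± 0.11) and Gbp2 (0.21 ± 0.12). Their limma adjusted p ran from 0.180 for Oas3 upward. Those of Oas3, Irf2, Oasl2, Gbp2 and Ifngr2 were in the Pbrm1 cKO list alone. They entered the set only through the genotype that ranked them better, so their direction is not independent of that choice. The Ifngr2 region had no entry in 2 of the 6 libraries, which were given the mean of the last ranks there.

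**Figure D4:**
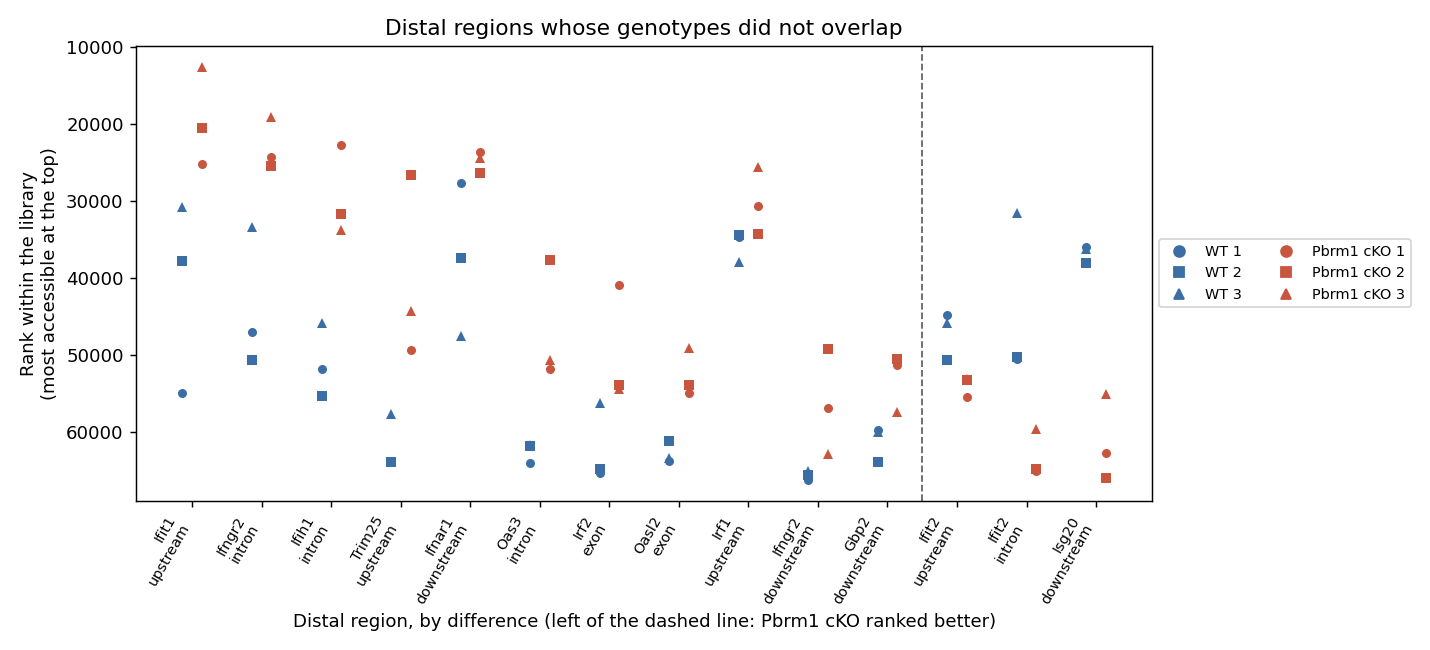
Rank in each library (most accessible at the top) of the 14 distal regions whose 3 WT and 3 Pbrm1 cKO libraries did not overlap, ordered by the difference. The 11 regions left of the dashed line have better ranks in Pbrm1 cKO, led by the one before Ifit1, and the 3 to the right, of Ifit2 and Isg20, have worse ranks.

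The smallest p among all regions of the set belonged to a region beyond the 3′ end of Isg20 (chr7:78925333-78925689). Its ranks were 36049, 38086.5 and 36267 in WT and 62755.5, 66105 and 55090.5 in Pbrm1 cKO. The WT libraries were close to each other and all 3 Pbrm1 cKO libraries lay far behind them. This region was in the WT list alone, so it entered the set only through the genotype that ranked it better. The difference of -0.73 ± 0.19 did not pass (limma adjusted p = 0.0983). The promoter of Isg20 had a difference of 0.27 with overlapping genotypes.

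Ifit2 had 2 such regions, one in an intron (chr19:34552088-34552310) and one 2517 bases before the start. The intronic region was in the list of WT alone, the genotype that ranked it better. Its ranks were 50575, 50253 and 31579.5 in WT and 65191, 64875 and 59650 in Pbrm1 cKO, a difference of -0.55 ± 0.18 (limma adjusted p = 0.157). The region before the start had a difference of -0.20 ± 0.16. The promoter region of Ifit2, the most accessible of the regions at this gene, overlapped between the genotypes with a difference of the opposite sign, 0.45.

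The most accessible distal regions mostly lay at other genes. The region before Bst2 at the start of Mvb12a had a mean rank of 1405, and that before Ifi35 at the start of Rpl27 had one of 1493. At no coding gene's start, 2 adjacent regions downstream of Usp18 ranked best, with mean ranks of 6985 and 7896. They were followed by a region downstream of Trim25 at 10079 and an intronic region of Ifnar2 at 10787. Next came an intronic region of Irf2 at 12747 and a region 9609 bases before the start of Ifnar2 at 14788. All of these overlapped between the genotypes, and so did the regions at Agrn beside Isg15 and at 2210016L21Rik beside Oasl1.

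The lists of reproducible peaks, 1 per genotype, held 73 of the 101 regions in both, 9 in WT alone and 19 in Pbrm1 cKO alone. Over all regions 69.2% were in both, 13.4% in the WT list alone and 17.4% in the Pbrm1 cKO list alone. Among the members' regions at no start, 14 of 44 (31.8%) were in the Pbrm1 cKO list alone, against 21.4% of all regions at no start. These lists allow no replicate comparison.

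The ISRE was found in the central 300 bases of 7 of the 39 promoter regions (17.9%), against 2.70% of all regions at a start. It was found in 6 of the 62 distal regions (9.68%), of which 18 lie at another gene's start, against 3.63% of all regions at no start. The GAS was found in 17.9% and 11.3% of the members' regions, against 6.57% and 10.4%. None of the 101 regions was masked as a repeat over more than 50% of its length.

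Beside Rsad2, whose own start had no region, 2 distal regions each held a pair of ISREs. One lay between Rsad2 and Cmpk2 and the other beyond the 3′ end of Rsad2. They are shown as + strand sequence of GRCm38, with the ISREs in capitals, because their letters resembled each other.
Beyond the 3′ end, chr12:26439467-26439547: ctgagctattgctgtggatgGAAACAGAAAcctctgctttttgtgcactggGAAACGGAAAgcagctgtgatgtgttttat
Between Rsad2 and Cmpk2, chr12:26460212-26460292: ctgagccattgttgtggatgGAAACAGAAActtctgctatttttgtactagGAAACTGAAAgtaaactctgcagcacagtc

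Set side by side without gaps, the 2 windows had the same base at 55 of 81 positions (67.9%). Both regions were in the Pbrm1 cKO list alone. The first had ranks of 60807.5, 63381 and 51846.5 in WT and 60799, 55479 and 45398 in Pbrm1 cKO, and the second had ranks of 42967.5, 61876.5 and 54014 in WT and 37413.5, 43038 and 55200.5 in Pbrm1 cKO. The genotypes overlapped at both, with differences of 0.13 ± 0.14 and 0.23 ± 0.20.

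The lists of single libraries held 289, 297 and 277 distinct intervals over the 35 loci in WT libraries 1 to 3 and 276, 268 and 286 in Pbrm1 cKO. The means were 287.7 ± 10.1 and 276.7 ± 9.02 (SD, n = 3 each), and the groups overlapped. As a share of all intervals they were 0.133% ± 0.0159 and 0.136% ± 0.00418.

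Of 61 other genes of the pathway, 50 had a promoter region. Of these, 0 passed limma (adjusted p, Benjamini-Hochberg), with 5 at an unadjusted p under 0.05. Of all 21555 regions at a start, 959 ranked better and 1707 worse at that unadjusted value. All 6 interferon genes of the list (Ifnb1, Ifng, Ifne, Ifnk, Ifnl2 and Ifnl3) had no region, while all 9 genes of other receptor chains and signal transduction had one. The 5 smallest p belonged to Tmem173, the gene of the DNA-sensing adaptor STING (-0.85 ± 0.25, limma adjusted p = 0.124), Parp14 (-0.61 ± 0.18), Sp100 (-0.92 ± 0.35), Irf4 (-0.78 ± 0.32) and Tyk2, the kinase of the type I receptor (1.15 ± 0.48). The genotypes did not overlap at any of these 5, which were picked by p, and Tyk2 alone had better ranks in Pbrm1 cKO. Over the 50 genes, 3 had better and 7 had worse ranks in all Pbrm1 cKO libraries. Over all regions at a start the shares were 6.63% and 10.3%.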

How the data were processed

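Paired-end ATAC-seq reads were processed by the authors with an ENCODE pipeline on GRCm38. The labels' processing notes name cutadapt, Bowtie2 and MACS2. For every library the authors deposited a relaxed list of at most 300000 peaks (p threshold 0.01), and for every genotype a list of reproducible peaks at an irreproducible discovery rate of 0.05. The columns deposited by the authors are a fold enrichment (a ratio), −log10 p and −log10 q values, a rescaled score, and positions and other fields. The fold, q and score of the reproducible lists were not used. No read counts were used, so ranks took the place of the count model in the study's methods.

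Regions of the 2 reproducible lists sharing at least 1 bp were merged into 66679. Missing entries shared the mean of the last ranks. limma 3.58.1 in R 4.3.3 (lmFit, then eBayes with a trend) was fitted to all regions without covariates, with Benjamini-Hochberg adjustment and a threshold of 0.05. The procedure was tested on simulated data. Copies in the genome were searched with minimap2.

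The members and lists were chosen with earlier results of these data known. Some genes of these lists are not reported here. Each member was named by its promoter region of best mean rank. Distal regions were named as the 10 of best mean rank and the 10 of smallest p, and others with genotypes that did not overlap were added after their values were seen. For the other pathway genes, the 5 smallest p were named. Alternatives were the scale, the ranking column, the regions kept, distances, overlaps, each library left out and a replicate block.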

Additional observations from a re-analysis of the deposited data

How the results depend on the processing

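The counts of 0 member promoter regions and 0 other pathway promoter regions past the threshold remained 0 under every alternative run. With normal scores, 1 distal region passed, the one beyond Isg20 (limma adjusted p = 0.0476, range over its alternatives 0.0476 to 0.298), when 1552 of all regions passed against 45. Ranking by fold enrichment left 4. Without WT replicate 3, 20 of all regions passed, and without any other single library 2 to 5.

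Without the flank, list membership was 42 in both, 5 in WT alone and 9 in Pbrm1 cKO alone, and in the stronger part of each list 44, 0 and 10. Regions with better ranks in all Pbrm1 cKO libraries numbered 5 without the flank and 15 to 20 with a library left out (20 without WT replicate 3, 18 without WT replicate 1, 17 without Pbrm1 cKO replicate 2). Those with worse ranks numbered 9 to 15 (15 without WT replicate 3 or Pbrm1 cKO replicate 3, 13 without WT replicate 1 or 2). With fewer libraries, non-overlap is easier by construction. Intervals over the loci differed by -11, by 8.67 at a q of 0.05 or less and by -16.3 to -6.33 with a library left out.

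The replicate numbers did not pair the libraries (r = -0.00289, -0.0549 and 0.00906 for same-numbered libraries), and 0 of 6 libraries correlated best with its own number. With the replicate block 131 of all regions passed, none of them at the members, and the interval difference was -11.

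Of 370 single values, 343 kept their direction and side of the threshold, 1 passed and 26 changed sign. Ranked by fold enrichment, Stat2 was -0.0620, Ifnar2 0.0481 and Ifngr1 -0.29. With a library left out, ranges were -0.40 to 0.22 for Mx2, -0.47 to 0.10 for Oas1a, -0.19 to 0.0400 for Oasl1, -0.0856 to 0.63 for Stat2, -0.39 to 0.0673 for Irf3, -0.17 to 0.0229 for Irf5, -0.80 to 0.0760 for Ifih1, -0.0404 to 0.23 for Gbp2, -0.49 to 0.40 for Gbp3, -0.23 to 0.34 for Xaf1, -0.14 to 0.0681 for Ifnar2, -0.19 to 0.48 for Ifngr1 and -0.64 to 0.61 for Ifngr2. The causes were not tested. Ranks show a region's place within its library, so a shift shared by all regions of a library cannot be seen.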
